A study of Homo sapiens with 4 samples.

Results

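The genes described here encode proteases that cut the extracellular matrix, the activators of plasminogen, and the inhibitors and receptor that control them: the matrix metalloproteinases MMP2, MMP9 and MMP14, the tissue inhibitors of metalloproteinases TIMP1, TIMP2 and TIMP3, the plasminogen activators PLAU and PLAT, and the urokinase receptor PLAUR. These 9 genes were listed by name, and 8 of them had a probe set named in the platform annotation, of 17687 named genes in all; TIMP2 was not analysed here. Their expression was measured in SK-N-AS, an established human neuroblastoma line grown in serum-containing medium, on Affymetrix whole-transcript arrays of total RNA. In the treated group, cells received BG-P400-TAT at 30 µM for 48 h, and in the untreated group they received phosphate-buffered saline for the same time, with 2 arrays per group. By the series title, the compound targets 2 proteins, the integrin αvβ3 and the norepinephrine transporter. Nothing in the labels says how the cultures of a group were kept apart, so the p-values measure only the spread between these arrays, which may be technical.

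Matrix metalloproteinases are zinc-dependent enzymes made as inactive proenzymes. MMP14 sits in the cell membrane and, together with TIMP2, activates MMP2, a gelatinase that degrades basement membrane collagen, and the TIMP proteins block the active enzymes. Urokinase (PLAU), held at the cell surface by its receptor PLAUR, and tissue plasminogen activator (PLAT) convert plasminogen to plasmin, a broad protease that also activates several metalloproteinases. In tumour cells both systems are known for their part in invasion, and αvβ3 is known to hold MMP2 at the surface of invading cells.

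Sequence upstream of the transcription start is shown for 4 of these genes, an inhibitor pair and an enzyme with its receptor, because within each pair 1 gene gave a signal above the negative controls and the other did not. RefSeq promoters on GRCh38.p14 were available for 5 of the 9 genes, in 6 windows, since PLAU has 2 listed starts. Each line gives the 250 bases before the start, 5′ to 3′ on the gene's strand. Capitals mark the AP-1 motif TGANTCA and the GC box GGGCGG, each searched on both strands; the 2 motifs do not overlap in these windows.
TIMP1 (chrX:47582186-47582435, plus strand): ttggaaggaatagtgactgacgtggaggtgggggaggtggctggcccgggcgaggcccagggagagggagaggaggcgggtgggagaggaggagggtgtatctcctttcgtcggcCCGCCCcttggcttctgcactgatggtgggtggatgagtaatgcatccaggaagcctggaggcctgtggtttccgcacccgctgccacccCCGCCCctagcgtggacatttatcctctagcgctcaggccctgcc
TIMP3 (chr22:32801455-32801704, plus strand): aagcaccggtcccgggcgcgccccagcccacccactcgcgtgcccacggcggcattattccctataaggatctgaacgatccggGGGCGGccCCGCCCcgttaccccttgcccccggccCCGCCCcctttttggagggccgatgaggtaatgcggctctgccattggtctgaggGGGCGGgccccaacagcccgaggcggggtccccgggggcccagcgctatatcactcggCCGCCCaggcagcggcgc
PLAUR (chr19:43670170-43670419, minus strand): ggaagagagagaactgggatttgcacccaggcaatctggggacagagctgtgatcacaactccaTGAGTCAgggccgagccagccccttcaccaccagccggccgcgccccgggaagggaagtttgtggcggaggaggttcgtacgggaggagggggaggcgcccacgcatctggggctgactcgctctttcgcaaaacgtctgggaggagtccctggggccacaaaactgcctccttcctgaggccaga
PLAU, start 2 (chr10:73910882-73911131, plus strand): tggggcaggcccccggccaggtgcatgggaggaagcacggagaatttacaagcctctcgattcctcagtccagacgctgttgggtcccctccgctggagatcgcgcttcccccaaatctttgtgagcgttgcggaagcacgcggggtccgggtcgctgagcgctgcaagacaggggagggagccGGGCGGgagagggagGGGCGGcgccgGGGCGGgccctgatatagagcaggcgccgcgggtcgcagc

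The PLAUR window held 1 AP-1 match, TGAGTCA, 180 to 186 bases before the start, and no GC box. None of the other 5 windows held the AP-1 motif, which is found in 6.57% of the 35116 promoter windows of this length. Variants of these letters, such as TGAGTAA in the TIMP1 window, were not counted, so a window without a match can still hold a related sequence. GC boxes numbered 5 in TIMP3, 3 at the PLAU start shown, 2 in TIMP1 and 1 in MMP14, and 42.6% of all windows hold at least 1. The other PLAU start had neither motif, and its window was 46.8% G and C against 68.8% at the start shown. These matches describe letters in the windows and say nothing of binding.

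The median log2 expression per array lay between 6.49 and 6.51, and 41.1% to 45.0% of 21448 probe sets lay above the 95th percentile of that array's negative-control sets. This limit, used here to say whether a gene can be read, was 7.31 and 7.64 for untreated replicates 1 and 2. For treated replicates 1 and 2 it was 7.19 and 7.25. Over all 4 arrays together, a gene is called readable where the mean of its 4 values is above 6.96, the same percentile of the negative-control means. This is lower than each array's own limit, so a readable gene can lie below the limit on some or all arrays. Untreated replicate 2 stood apart: its median absolute log2 difference to the others was 0.237 to 0.244, against 0.193 to 0.208 between pairs without it. Of the neuroblastoma markers, 5 of 7 adrenergic ones (PHOX2A, HAND2, GATA2, GATA3 and ISL1) and 8 of 9 mesenchymal ones were readable, whereas TH and DBH, the catecholamine enzymes, stayed below the limit on every array. All 8 fibroblast markers and none of 6 endothelial ones were readable, and 7 of the 8 were above the limit on all 4 arrays. Of 8 blood-cell markers, CD68 and PTPRC, a leukocyte phosphatase, were readable, and PTPRC read 12.57 to 12.80 on all 4 arrays; whether its probe set is specific to that transcript was not tested. CD68 read 10.58 and 10.73 in untreated and 10.73 and 10.78 in treated cells. The blood-cell markers' summed log2 values were 53.1 and 57.0 in untreated and 54.2 and 54.6 in treated cells. Since 6 of the 8 stayed below the limit on every array, these sums include values that cannot be read. The part of the blood-cell markers in the levels below was not tested.

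In untreated SK-N-AS cells, 5 of the 8 measured genes gave a signal above the negative controls on both arrays: MMP2, MMP14, TIMP1, PLAUR and PLAT. The gelatinase MMP9, the inhibitor TIMP3 and the urokinase gene PLAU stayed below them on all 4 arrays. At the stricter 99th percentile, whose limits were 10.85 and 9.99 on the untreated arrays, MMP2 and TIMP1 were the 2 that remained. At the 90th percentile TIMP3 was added, which made 6.

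**Figure D1:**
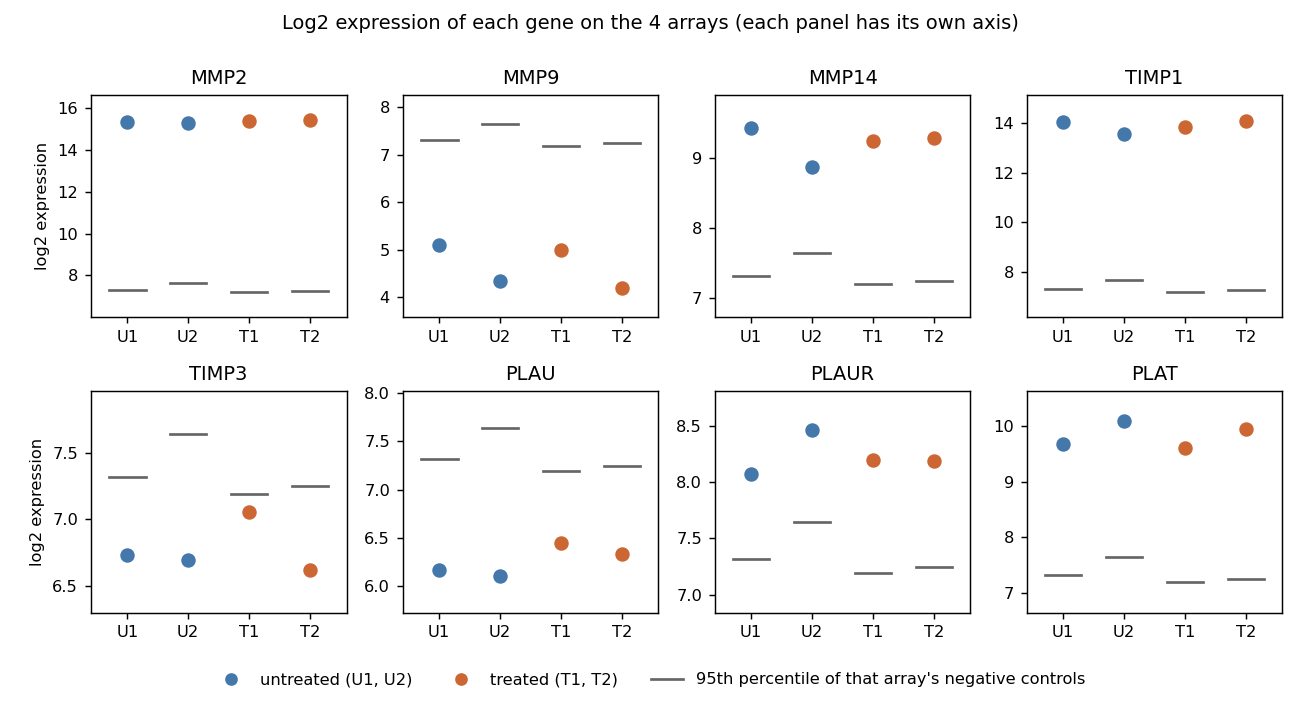
Log2 expression of the 8 measured genes on each array, untreated in blue and treated in orange, with a grey bar at the 95th percentile of that array's negative controls; each panel has its own axis. MMP2, MMP14, TIMP1, PLAUR and PLAT lie above the bar on all 4 arrays, and MMP9, TIMP3 and PLAU below it.

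No gene of the group passed the test between treated and untreated cells. The estimated log2 differences of the 5 readable genes ran from -0.10 to 0.17. The treated mean was higher for MMP2, MMP14 and TIMP1 and lower for PLAUR and PLAT. The test was limma's moderated test across all probe sets with Benjamini-Hochberg adjustment, which called 0 of 21448 probe sets (0%). At an unadjusted p under 0.05 it found 1089 probe sets (5.08%), none of them a gene of this group. The design compared 2 arrays with 2, and an exact two-sided permutation test of a single gene cannot go below p = 0.333.

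MMP2 had log2 expression values of 15.35 and 15.27 in untreated and 15.40 and 15.43 in treated cells. Both treated values lay above both untreated ones, so the groups did not overlap. The means were 15.31 ± 0.055 (SD, n = 2) and 15.41 ± 0.021 (SD, n = 2), a log2 difference of 0.11 ± 0.18 (SE) with a 95% interval from -0.32 to 0.53. On the linear scale this is 1.08-fold, with an interval from 0.799 to 1.45, and the limma adjusted p was 0.996. MMP2 was the 1 gene of the 5 whose treated values both lay above the untreated ones, and 21.2% of the 8722 named genes above the negative controls showed the same.

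MMP14, the membrane-anchored activator of MMP2, read 9.43 and 8.87 in untreated and 9.25 and 9.30 in treated cells. The treated pair lay between the untreated pair, with the lowest value on untreated replicate 2. Its log2 difference was 0.12 ± 0.24 (SE), with an interval from -0.44 to 0.68, from means of 9.15 ± 0.40 and 9.27 ± 0.035 (SD, n = 2 each). The fold was 1.09, with an interval from 0.737 to 1.60, and the limma adjusted p was 0.997.

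TIMP1, a secreted inhibitor of most matrix metalloproteinases, read 14.03 and 13.56 in untreated and 13.83 and 14.10 in treated cells. The groups overlapped, and untreated replicate 2 again gave the lowest value. The means of TIMP1 were 13.80 ± 0.33 and 13.96 ± 0.19 (SD, n = 2 each), a log2 difference of 0.17 ± 0.23 (SE) with an interval from -0.38 to 0.72. The limma adjusted p of TIMP1 was 0.985. Its fold was 1.12, with an interval from 0.767 to 1.64.

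TIMP3, an inhibitor that binds to the matrix, read 6.73 and 6.69 in untreated and 7.05 and 6.62 in treated cells. MMP9, the other gelatinase, read 5.10 and 4.34 in untreated and 4.99 and 4.20 in treated cells. All of these values lie below the array's limit, so no fold is given for either gene.

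Within an array, the log2 ratio of MMP2 to TIMP1, centred on its untreated mean, was -0.20 and 0.20 in untreated and 0.059 and -0.18 in treated cells. The treated values lay inside the untreated range, so this ratio of RNA signals moved by less than the spread between untreated arrays. The balance of the active enzyme and inhibitor proteins was not measured. The same ratio for MMP14 and TIMP1 was 0.047 and -0.047 in untreated and 0.062 and -0.16 in treated cells, which lay on both sides of the untreated pair. These ratios are a description and were not tested.

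In the plasminogen system, PLAT, the tissue-type activator, read 9.68 and 10.09 in untreated and 9.62 and 9.96 in treated cells. The groups overlapped, with replicate 2 the higher array in each. The means of PLAT were 9.89 ± 0.29 and 9.79 ± 0.24 (SD, n = 2 each), a log2 difference of -0.10 ± 0.23 (SE) with an interval from -0.64 to 0.44. PLAT had a limma adjusted p of 0.997 and a fold of 0.932, with an interval from 0.640 to 1.36.

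PLAUR, the receptor that holds urokinase at the cell surface, read 8.07 and 8.46 in untreated and 8.20 and 8.19 in treated cells. Both treated values lay between the untreated ones. Its log2 difference was -0.075 ± 0.21 (SE), with an interval from -0.57 to 0.42, from means of 8.27 ± 0.28 and 8.19 ± 0.0083 (SD, n = 2 each). The fold of PLAUR was 0.950, with an interval from 0.674 to 1.34, and its limma adjusted p was 0.997.

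PLAU, the ligand of PLAUR, read 6.16 and 6.11 in untreated and 6.45 and 6.33 in treated cells. The treated values were the higher pair, but all 4 lay below the negative controls' limit, and no fold is given. PLAU had the smallest p of the group (limma unadjusted p = 0.208, adjusted p = 0.951). The 3 readable genes whose 4 centred values were nearest to those of PLAU were CROT, PNO1 and TANGO2, with root mean square differences of 0.012, 0.013 and 0.014 log2 units. Such closeness over 4 arrays is common, since 984 of 8722 readable genes lay within 0.1 of PLAU. Because the values of PLAU lie below the limit, it is not read as shared expression.

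The spread between the untreated arrays was larger than the difference between groups for 4 of the 5 readable genes, all but MMP2, and for 65.1% of all named genes above the negative controls. Relative to untreated replicate 1, untreated replicate 2 was lower in MMP14 by 0.57 and in TIMP1 by 0.47, and higher in PLAT by 0.41 and in PLAUR by 0.39. Without untreated replicate 2, the log2 difference became -0.16 for MMP14, -0.068 for TIMP1, 0.12 for PLAUR and 0.10 for PLAT, so all 4 turned sign. A turn of sign without that array was seen in 24.2% of the 8722 readable genes, and in 16.2% to 19.6% without one of the others. The sign of PLAT also turned without treated replicate 1 (0.069). MMP2 kept its sign with any array left out, at 0.067 to 0.14. Because its groups do not overlap, leaving out an array could not turn it, so this adds nothing to the non-overlap.

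**Figure D2:**
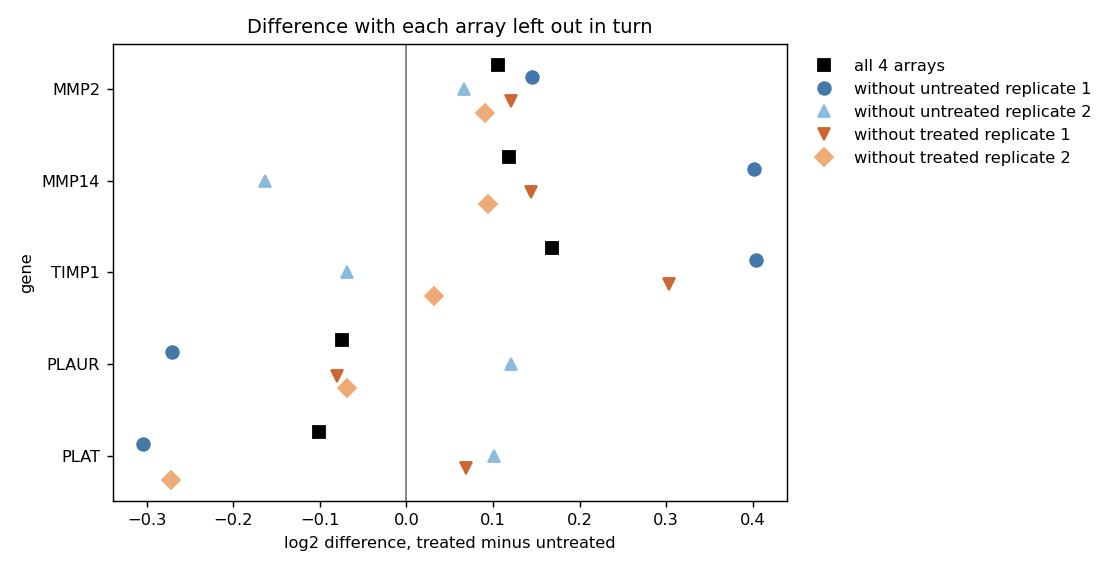
Log2 difference, treated minus untreated, for the 5 genes above the negative controls, with all 4 arrays (black squares) and with each array left out. Without untreated replicate 2 (light blue triangles) MMP14, TIMP1, PLAUR and PLAT lie on the other side of 0. MMP2, whose groups do not overlap and whose sign therefore cannot turn, stays between 0.067 and 0.14.

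The 95% intervals of all 5 readable genes lay within 2-fold in both directions, as did those of 95.7% of the named genes above the negative controls. A change of 2-fold or more in MMP2, MMP14, TIMP1, PLAUR or PLAT lies outside these intervals, and each interval includes no change.

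**Figure D3:**
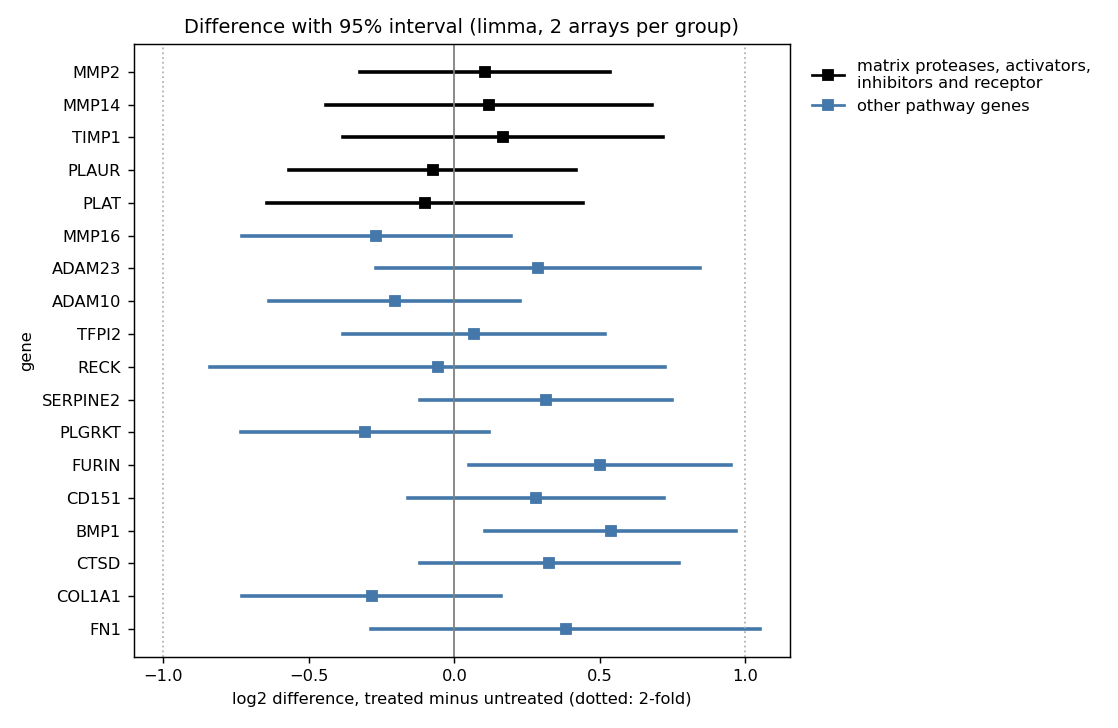
Log2 difference with its 95% interval from limma (2 arrays per group) for the 5 readable genes of the group (black) and 13 other genes of the pathway (blue), with dotted lines at 2-fold. The black intervals all cross 0 and stay within 2-fold; among the blue ones, those of FURIN and BMP1 do not cross 0, although neither gene passed after adjustment.

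The rest of the pathway was read from 7 lists with 154 genes, of which 145 were measured and 61 were above the negative controls. None of the 145 passed limma's adjusted threshold in either direction, and 2 of the 61 had an unadjusted p under 0.05, where 2.4% of all named genes above the negative controls did. The median log2 difference of all readable named genes was 0.040, and 58.8% of them were above 0.

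Of 19 other matrix metalloproteinases measured, 18 stayed below the limit on all 4 arrays. The exception was MMP16, another membrane-type enzyme, which read 10.89 and 10.61 in untreated and 10.45 and 10.51 in treated cells. Both treated values of MMP16 were below both untreated ones, with a log2 difference of -0.27 (interval -0.73 to 0.19, limma adjusted p = 0.951). The value of MMP16 was -0.13 without untreated replicate 1 and -0.41 without untreated replicate 2. The treated values lie below the untreated ones in 11.4% of readable named genes.

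Of 28 ADAM and ADAMTS genes, which encode sheddases and matrix proteases related to the metalloproteinases, 11 were readable, 5 higher and 6 lower in the mean of treated cells (median -0.0091). ADAM10, a sheddase of many surface proteins, had a log2 difference of -0.21 (interval -0.64 to 0.23), and ADAM23, a member without protease activity, 0.29 (interval -0.27 to 0.84). The value of ADAM23 was 0.012 without untreated replicate 2 and 0.56 without untreated replicate 1. In the list named other metalloprotease inhibitors, 2 genes were readable: RECK, a membrane-anchored inhibitor, and TFPI2, a matrix-bound inhibitor mainly of serine proteases. RECK read 8.50 and 8.71 in untreated and 9.05 and 8.04 in treated cells, so the treated arrays enclosed the untreated ones. Its log2 difference was -0.058 (interval -0.84 to 0.72), and that of TFPI2 was 0.066 (interval -0.38 to 0.52).

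Of 19 measured genes of plasminogen, the serpins and plasminogen receptors, 8 were readable, 5 higher and 3 lower (median 0.11). Plasminogen itself, PLG, stayed below the limit throughout, at 4.73 to 5.14. SERPINE2, an inhibitor of plasminogen activators and thrombin, read 7.57 and 7.53 in untreated and 7.92 and 7.81 in treated cells, a log2 difference of 0.31 (interval -0.12 to 0.75). PLGRKT, a plasminogen receptor, read 7.64 and 7.61 in untreated and 7.31 on both treated arrays, a log2 difference of -0.31 (interval -0.73 to 0.12). Neither gene passed (limma adjusted p = 0.948 for each), and each was above the limit on 3 of the 4 arrays.

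Among the convertases and partners of metalloproteinases, 8 of 12 were readable, 7 higher and 1 lower (median 0.13). Of the 12, 5 were above the limit on no array, so the readable ones include a gene below it throughout. FURIN, a convertase that activates proMMP14, read 6.81 and 6.67 in untreated and 7.33 and 7.15 in treated cells. It was above the limit on 1 of the 4 arrays, and its log2 difference of 0.50 (interval 0.049 to 0.95) did not pass (limma adjusted p = 0.948). With all values below the limit raised to it, the value of FURIN was -0.19. On every array but 1 the raised value is the limit itself, so this is mostly a difference between the arrays' limits. It is not read as a change of FURIN. The same floor gave a median log2 difference of -0.26 over all 21448 probe sets. CD151, a tetraspanin that associates with integrins, had 0.28 (interval -0.16 to 0.72).

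Of 31 cathepsins, cystatins and other pericellular proteases, 14 were readable, 12 higher and 2 lower (median 0.15). BMP1, the procollagen C-proteinase, read 7.67 and 7.57 in untreated and 8.13 and 8.17 in treated cells, a log2 difference of 0.54 (interval 0.11 to 0.97; limma adjusted p = 0.948). It was above the limit on 3 of the 4 arrays. CTSD, a lysosomal aspartic protease, had a log2 difference of 0.33 (interval -0.12 to 0.77). In 7 of the 14 both treated values lay above both untreated ones, where 21.2% of readable named genes do, and in 1 both lay below. Treated values lay above in 2 of 11 readable ADAM and ADAMTS genes and 3 of 8 in the plasminogen list. For the convertases and partners this was 2 of 8, and for the matrix substrates 3 of 17. It was 0 of 2 for the other inhibitors and 0 of 1 for the other matrix metalloproteinases. The difference between lists was not tested.

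Of 28 basement membrane and matrix genes, the substrates of these enzymes, 17 were readable, 7 higher and 10 lower (median -0.10). COL1A1, a chain of collagen I, had a log2 difference of -0.28 (interval -0.73 to 0.16) and was above the limit on 2 of the 4 arrays. FN1, fibronectin, had 0.38 (interval -0.29 to 1.05). FN1 was 0.011 without untreated replicate 2 and 0.75 without untreated replicate 1.

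**Figure D4:**
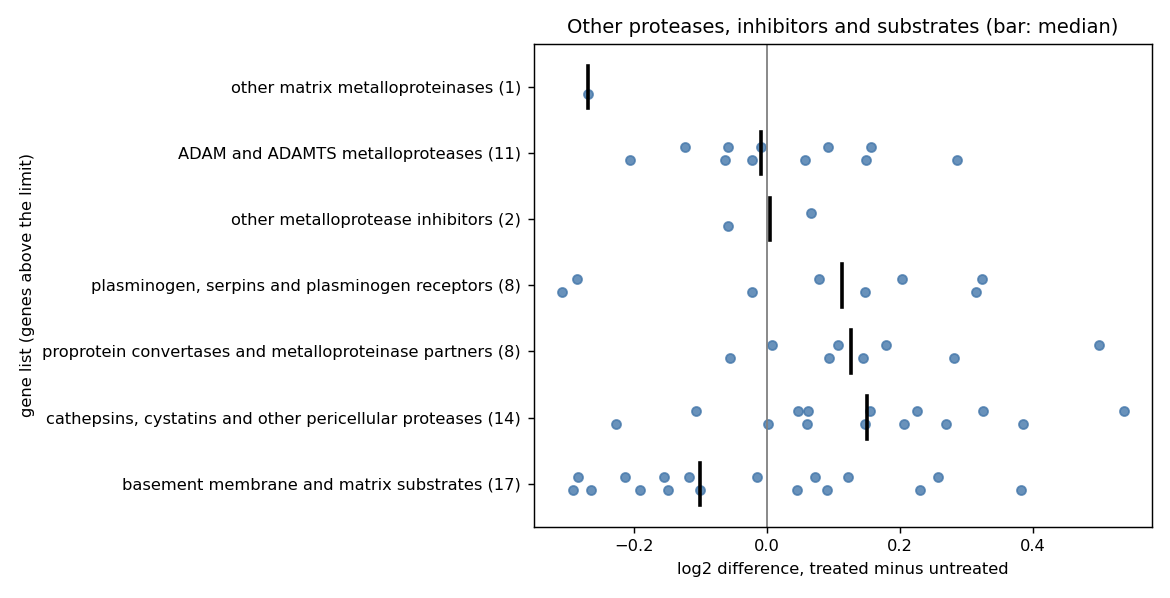
Log2 difference, treated minus untreated, of the 61 readable genes of the 7 lists, 1 point per gene, with a black bar at each list's median and the number of genes in brackets. The points lie between -0.31 and 0.54, and the medians between -0.27 (1 gene) and 0.15.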

How the data were processed

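The authors deposited log2 values, 1 for each probe set and array. Per the submitters' processing notes, RMA and version 4.0.1.36 of Transcriptome Analysis Console were used. That the scale is log2 follows from the values' range, and the sources used here give no genome build for the probes. RMA includes quantile normalization, which removes a change shared by most genes. Of 24351 probe sets, 2903 controls were left out and 21448 were tested. The platform annotation gave 1 symbol for 17709 of these, several for 0, and 3739 are unnamed here; the brightest probe set was taken for 20 symbols with several, none of them in the group described. A gene is called readable where the mean of its 4 values is above 6.96, the 95th percentile of 612 negative-control sets; for single arrays that array's own percentile was used.

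Group was the single term in a limma fit (lmFit, then eBayes; limma 3.58.1, R 4.3.3), with two-sided tests, adjustment by Benjamini-Hochberg over all probe sets at 0.05, and 95% intervals. The fit was tested on simulated data. The genes and lists were chosen with earlier results of these data known. Named were the genes of the group, the 2 readable genes of smallest p in each list, and the 3 readable genes nearest to the gene of smallest p; PLG was named outside this rule, after its values were seen. The number of arrays limits the precision. Alternatives were other normalizations, filters, a floor, variance moderation, probe-set choices, the replicate number as a block and each array left out.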

Additional observations from a re-analysis of the deposited data

How the results depend on the processing

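None of the genes of the group passed limma's adjusted threshold under any of the 13 alternatives. Across the table the count of probe sets called was 0 in 12 of these and 10 after values below each array's limit were raised to it. Of those 10, 8 were at the limit on no array. For such a gene the floor leaves the difference as it was and alters the variance estimate and the adjustment. FN1, above the limit on all 4 arrays, kept its log2 difference of 0.38. Its limma unadjusted p was 0.219 as deposited and 0.034 with the floor. The 10 calls are not read as changes, and why they passed was not tested. MMP9, TIMP3 and PLAU have no value under that floor, and the filter on dim probe sets removed them. The count of genes above the negative controls on both untreated arrays was 5 at the 95th, 6 at the 90th and 2 at the 99th percentile.

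Of 267 log2 differences of named genes under alternatives, 254 kept their direction and 13 turned. FURIN turned with the floor (-0.19). There its values on every array but 1 are the limits themselves, so this turn is not read as a change. The others turned with an array left out, where a group of 1 array is assumed to vary like the other. Over the 4 fits that each omit an array, the range was -0.16 to 0.40 for MMP14, -0.068 to 0.40 for TIMP1, -0.27 to 0.12 for PLAUR, -0.30 to 0.10 for PLAT, -0.026 to 0.16 for TFPI2 and -0.56 to 0.45 for RECK. For MMP9 (-0.52 to 0.27) and TIMP3 (-0.090 to 0.34) these are differences of values below the limit and are not read as changes. The groups share the replicate numbers 1 and 2. Same-numbered arrays did not deviate together (correlation -0.00085 over 21448 probe sets), so the numbers are not taken as pairs. With the replicate block, 0 probe sets and 0 genes of the group were called, and 1079 probe sets had an unadjusted p under 0.05.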
